A study of Mus musculus with 4 samples.

Results

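The cortical subplate spots were the Visium spots whose deposited region label is Cortex CTXsp, taken here as the cortical subplate of the mouse brain atlas. They numbered 654 of the 10549 spots over tissue. The wild-type section held 194, the Dp16 section 151, the 5xFAD section 107 and the 5xFAD-Dp16 section 202. A Visium spot is a small printed area that captures RNA from parts of several cells, so the values below belong to places in the tissue and not to single cells.

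The study measured 1 hemisphere section of 10 µm from each of 4 male mice at 9 months of age, cut between 1 and -2 mm from bregma. The wild-type mouse was C57BL/6J. The Dp16 line carries an extra copy of the part of mouse chromosome 16 that corresponds to much of the human chromosome trisomic in Down syndrome. The 5xFAD line carries human transgenes of familial Alzheimer's disease, mutant APP among them, under the Thy1 promoter, which acts mainly in neurons, and forms amyloid plaques. The 5xFAD-Dp16 mouse carried both. With 1 section per genotype, genotype, animal and section cannot be told apart, so differences between genotypes are given with counting error and without a test.

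The cortical subplate is a group of structures under the lateral cortex. It holds the claustrum, the endopiriform nucleus and the lateral, basolateral and basomedial nuclei of the amygdala. Most of its principal cells are glutamatergic projection neurons of pallial origin that exchange connections with the cortex, and its amygdalar nuclei are known for their part in learned fear and reward. It lies between the piriform cortex, an olfactory area, on one side and the striatum and central amygdala on the other.

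The sections did not hold the same mixture of tissue under this label. The deposited expression clusters showed it: cluster 0 held 80.1% of the Dp16 spots, 83.2% of the 5xFAD spots and 46.5% of the 5xFAD-Dp16 spots, and none of the wild-type spots. In the wild-type section 71.1% of the spots were in cluster 7, which held 10.6%, 1.87% and 14.9% in the others. Cluster 16 held 13.4% of the wild-type spots and 16.8% of the 5xFAD-Dp16 spots, against 0% in Dp16 and 4.67% in 5xFAD. The wild-type section therefore stood apart, and in it the 80 spots of cluster 0 within the cortex label AUC lay outside the subplate label. The shift was not particular to the subplate. The cortex label OLF also held no cluster 0 spots in the wild-type section, against 143, 165 and 86 in the others, listed in the same order as above.

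Markers of neighbouring tissues moved with these clusters. The summed level of 4 choroid plexus genes was 93.9 CPM (counts scaled to the total of each library) for the wild-type subplate, 47682 for Dp16, 43810 for 5xFAD and 9412 for 5xFAD-Dp16. In cluster 0, Ttr, the transthyretin gene of the choroid plexus, reached 56373, 39064 and 15918 CPM in the Dp16, 5xFAD and 5xFAD-Dp16 sections. In cluster 7 of the wild-type section it was 91.6 CPM. The meninges list summed to 27.3, 142, 209 and 63.3 CPM in the order wild-type, Dp16, 5xFAD and 5xFAD-Dp16, which is the order used for every set of 4 values that follows. The striatal list differed less, at 554, 265, 398 and 502 CPM. Under OLF the choroid plexus list summed to 115, 16692, 9678 and 3415 CPM, which ranks the sections as the subplate does. Under AUC the wild-type section had 5302 CPM of that list.

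**Figure D1:**
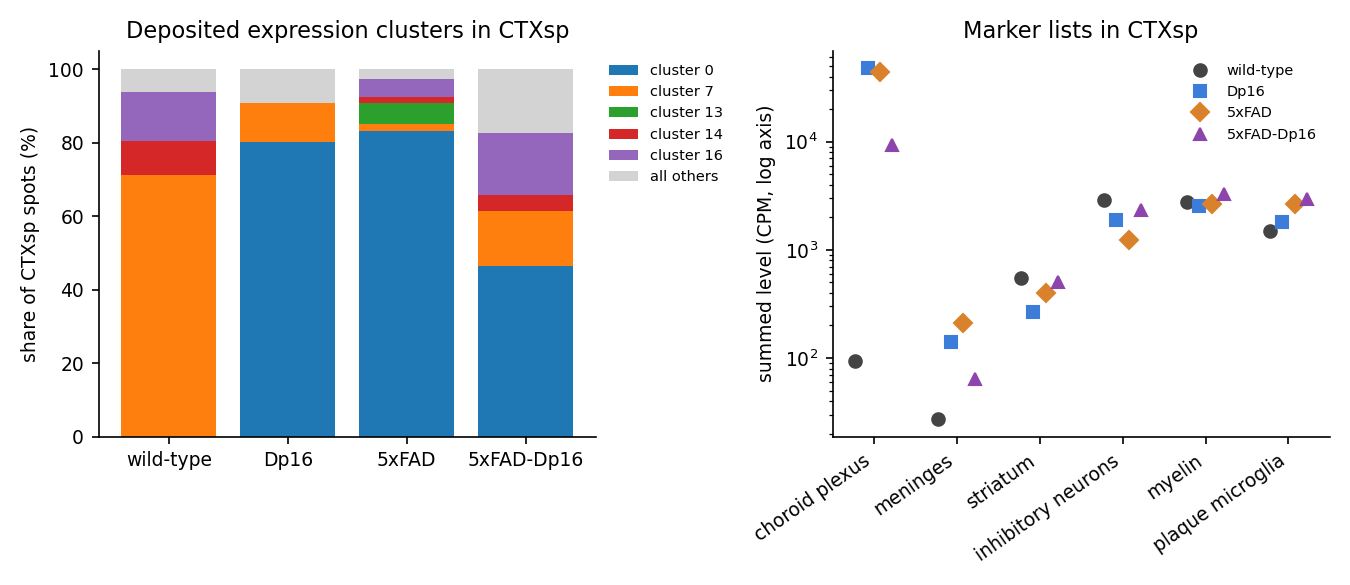
Left, percent of cortical subplate spots in each deposited expression cluster, one stacked bar per section. Right, summed level of 6 marker lists in the cortical subplate of each section, in CPM on a log axis. The wild-type bar has no spots of cluster 0, and the choroid plexus list is at 93.9 CPM there and between 9412 and 47682 CPM in the other sections.

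Of the 3 clusters measured, cluster 16 had the most Gad1 and the least Slc17a7. Its wild-type and 5xFAD-Dp16 spots had 423 and 405 CPM of Gad1, which makes GABA, and 16.3 and 44.1 CPM of Slc17a7, the vesicular glutamate transporter of cortical excitatory neurons. Cluster 16 was not kept to this label: its 25 spots in Dp16 lay under Hypothalamus, as did 48 in 5xFAD-Dp16, where 34 lay under the subplate label. In wild-type 37 of its spots lay under OLF and 26 under the subplate label, and in 5xFAD-Dp16 6 lay under OLF. Lypd1 was low in the subplate spots of cluster 16, at 73.3 and 31.5 CPM. In clusters 0 and 7, Lypd1 lay between 522 and 1066 CPM in the sections that held at least 16 spots of them.

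The 3 genes used to check the label were all highest under it. Lypd1 encodes a membrane-anchored Ly6 protein that binds nicotinic acetylcholine receptors. Its level was 598, 542, 626 and 628 CPM in the 4 subplate libraries, and 10.8 to 251 CPM in the 20 libraries of the other cortical regions compared. Those regions are labelled OLF (taken as olfactory areas), AUC, PTL, SSp and RSP, IL, and each was summed per section. The subplate and the other regions did not overlap, as was true of 25 of 8808 genes above the others (0.284%) and 154 below them (1.75%). Here edgeR's quasi-likelihood test with section as a block gave a log2 difference of 3.86 ± 0.08 (SE, n = 4 sections), Benjamini-Hochberg adjusted p = 3.7e-29. The sources used here do not say how regions were drawn. If expression was used, these p-values are descriptions and not tests.

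Nr2f2 encodes the nuclear receptor COUP-TFII, a transcription factor of the developing and adult amygdala. It stood at 130, 112, 99.7 and 94.3 CPM in the subplate. OLF came next with 104, 61.8, 64.0 and 40.1 CPM, so that these ranges overlapped. Within every section the subplate was higher than OLF, by 0.84 ± 0.11 (log2, SE, edgeR adjusted p = 1.4e-06), and against the mean of all 5 regions the difference was 3.46 ± 0.12 (adjusted p = 9.7e-22). C1ql3 encodes a secreted C1q-like protein that organises synapses. Its 57, 34.4, 60.5 and 32.0 CPM in the subplate compare with 33.7, 22.2, 46.1 and 16.3 in OLF, higher in each section but overlapping between sections. The difference from the 5 regions was 2.21 ± 0.13 (adjusted p = 9.3e-16). Its difference from OLF, 0.75 ± 0.13 (adjusted p = 9.4e-05), lost its call without plaque-marked spots and their neighbours (0.48).

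**Figure D2:**
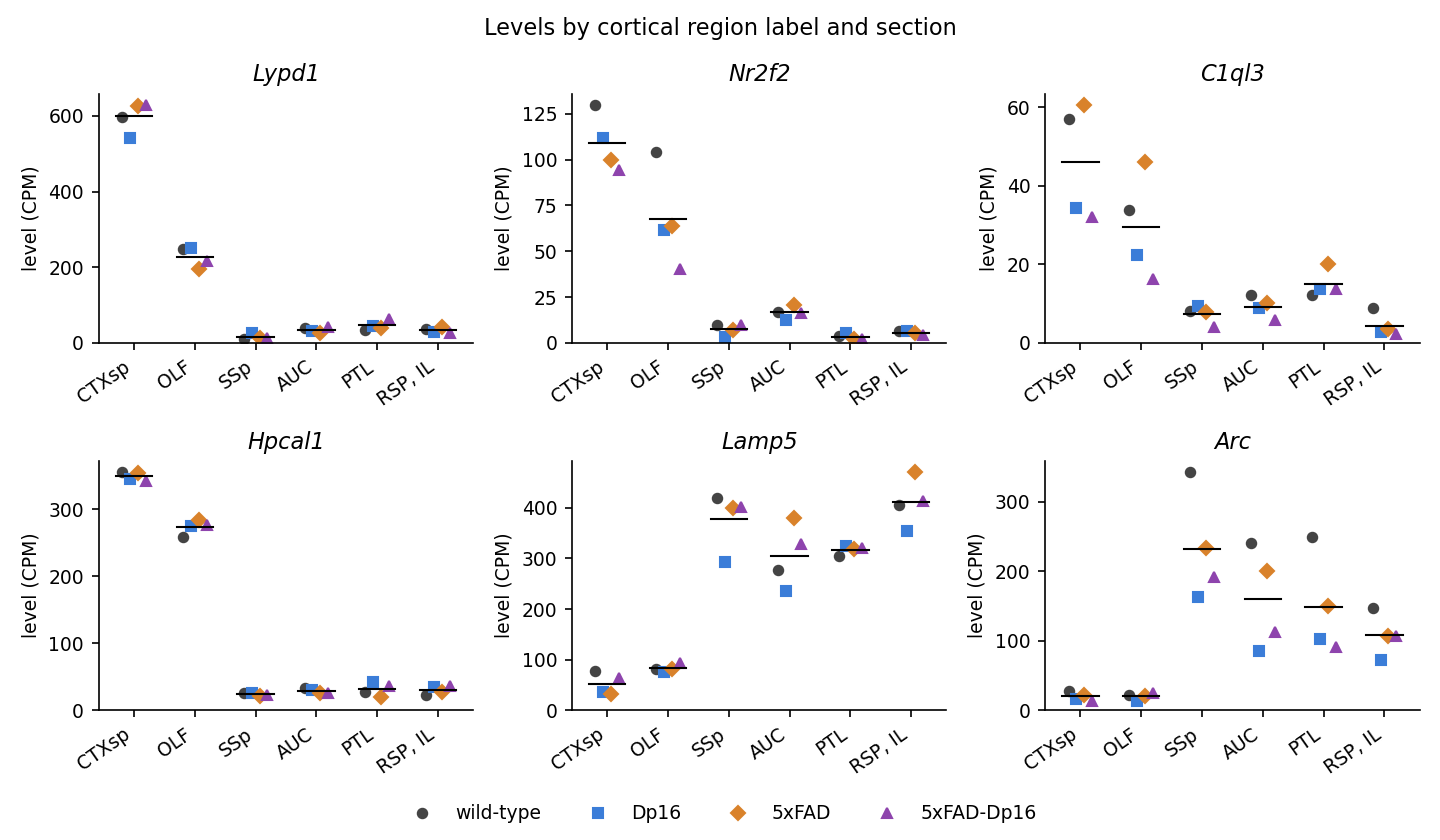
Level in CPM of Lypd1, Nr2f2, C1ql3, Hpcal1, Lamp5 and Arc in 6 cortical regions, one symbol per section and a black line at the mean. Lypd1 in the cortical subplate lies between 542 and 628 CPM, above each other library, and Arc is between 13.9 and 28.3 CPM in it.

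Lypd1 was spread over most subplate spots and was not carried by a few. After thinning each spot to 5000 UMIs (unique molecular identifiers, the counted RNA molecules), 75.9%, 76.7%, 77.4% and 67.8% of subplate spots held at least 1 Lypd1 UMI. Unthinned, the shares were 90.7%, 94.7%, 85.0% and 77.2%. The median spot held 13909 to 16660 UMIs in the subplate and 8587.5 to 10258.5 in SSp, depending on the section. The thinned shares in OLF were 61.3%, 64.9%, 49.3% and 51.5%, and in SSp, taken as a low reference, 4.21%, 7.69%, 4.71% and 5.93%. The order was thus subplate, OLF, SSp within each section. The median spot held 399, 376, 451 and 346 CPM of Lypd1 in the subplate, 179, 170, 128 and 165 in OLF, and 0 in SSp. Nr2f2 was found in 43.5%, 38.0%, 33.0% and 36.1% of thinned subplate spots and in 3.16%, 0%, 2.35% and 4.24% of those in SSp.

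**Figure D3:**
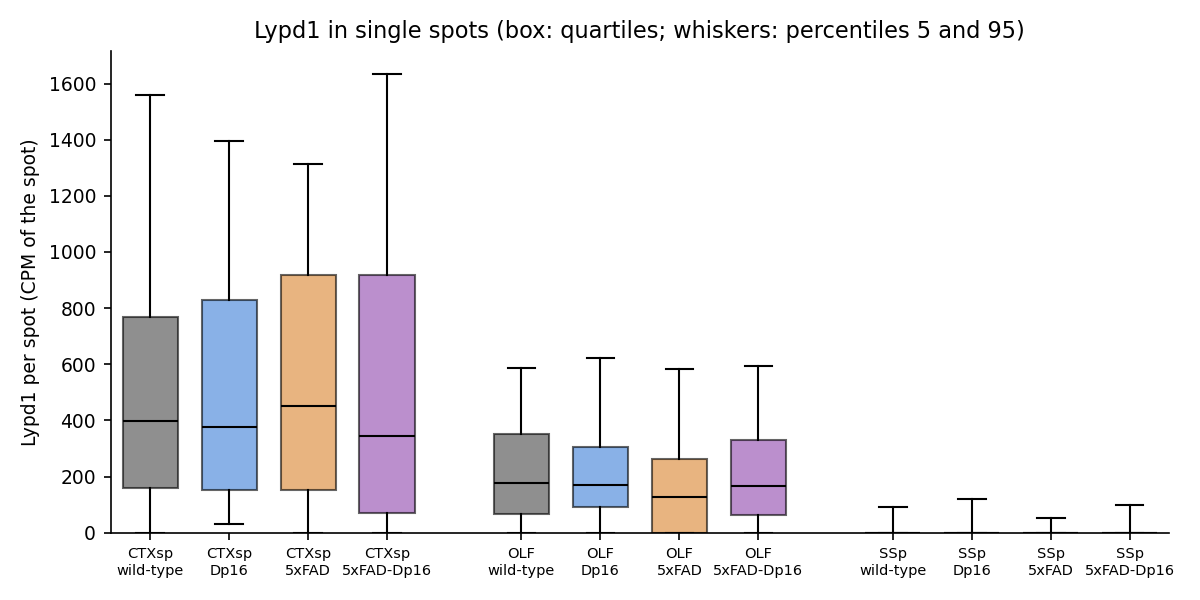
Lypd1 level per spot in CPM for the cortical subplate, OLF and SSp in each section. Boxes span the quartiles with the median as a line, and whiskers reach percentiles 5 and 95. The medians are 346 to 451 CPM in the subplate, 128 to 179 in OLF and 0 in SSp.

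Against the mean of the other 5 cortical regions, 1766 of 8808 genes tested were higher in the subplate (20%) and 1669 were lower (18.9%), 3435 in all (39.0%), at an adjusted p under 0.05. Besides Lypd1 and Nr2f2, the highest by size among abundant genes with 1 direction in all sections included the imprinted gene Nnat and the calcium sensor Hpcal1. Hpcal1 was nearly the same in each section, at 356, 346, 355 and 342 CPM, and at most 284 CPM in any other library (log2 difference 3.08 ± 0.06). Nnat was at 784, 958, 1444 and 1000 CPM (3.52 ± 0.12). In Dp16 and 5xFAD-Dp16, Nnat was at 986 and 1099 CPM in cluster 0 and at 458 and 865 CPM in cluster 7. The part of the spot mixture in its difference was not tested. Hap1, a huntingtin-binding protein of vesicle transport, was at 239, 190, 210 and 204 CPM (2.62 ± 0.09). In OLF, Hap1 was at 247, 155, 184 and 131 CPM, so that its ranges overlapped there.

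Several genes of the same ranking went with the choroid plexus and meninges lists. Clic6, an intracellular chloride channel protein of the choroid plexus, had the largest difference (4.85 ± 0.40), but its levels were 4.10, 130, 96.3 and 26.1 CPM, near 0 in the wild-type section where the choroid plexus list was lowest. Dcn, the matrix proteoglycan decorin, followed the meninges list at 17.1, 52.5, 121 and 31.0 CPM (3.15 ± 0.26). All 5 choroid plexus genes and both meninges genes tested were called higher. The part of these tissues in other differences was not tested. Restricting the subplate to clusters 0 and 7 does not remove them, because cluster 0 holds the transthyretin.

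The lowest gene was Trbc2, which encodes a T-cell receptor constant chain and was abundant in several isocortical regions. It stood at 2.05, 0, 2.06 and 2.44 CPM in the subplate against section means of 69.9, 77.5, 77.4 and 62.5 in the other regions (log2 difference -4.46 ± 0.32, edgeR adjusted p = 1.4e-13). OLF also had little of it, at 0.411 to 3.03 CPM. Lamp5, a membrane protein of upper-layer and some inhibitory neurons, was at 78.2, 35.9, 33.0 and 63.0 CPM against means of 298, 257, 330 and 311 (-2.14 ± 0.11).

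Immediate early genes, which neurons transcribe within minutes of strong activity, were lower under the subplate label. Of 19 tested, 16 were lower and 1 was higher, with a median log2 difference of -0.94, where all genes tested had 18.9% lower and a median of 0.01. Arc, which acts at active synapses, was at 28.3, 15.8, 22.7 and 13.9 CPM against means of 201, 87.4, 142 and 106 CPM in the other regions (-2.28 ± 0.14). Egr1, a zinc-finger transcription factor, was at 71.7, 35.1, 43.3 and 41.8 CPM against 339, 164, 215 and 178 (-1.90 ± 0.09). Nr4a1, an orphan nuclear receptor, differed by -1.83, Fos by -1.60, and Junb, a partner of Fos, by -0.98. Nr4a3 was the 1 gene called higher (0.44), and it lost that call without scaling factors, without plaque-marked spots and their neighbours, and when the Dp16, the 5xFAD or the 5xFAD-Dp16 section was left out. Under the settings that tested 18 to 20 of the genes, between 14 and 18 were called lower, and 9 of the 9 tested at a mean of 50 CPM or more were.

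OLF shared most of this. Against OLF alone 6 of 19 were lower, where all genes had 6.93% lower, and the median was -0.18. Arc was at 22.7, 13.6, 21.2 and 24.8 CPM in OLF, a difference of -0.03 that did not pass the test. Nptx2, a secreted pentraxin that gathers glutamate receptors, was lower in the subplate at 29.7, 22.0, 21.3 and 20.9 CPM against 68.1, 54.0, 52.9 and 56.7 in OLF (-1.22 ± 0.13), with no overlap. Bdnf, the growth factor, was lower as well (-0.69).

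The promoters of 3 of these genes are printed because the genes move together and because the cyclic-AMP response element is a textbook control site of this class. Each run is the 250 bases before the transcription start in RefSeq GRCm38.p6, 5′ to 3′ in the direction of transcription, and capitals mark TGACG, the core of that element, or CGTCA, the same core on the other strand. Fos lies at chr12:85473640-85473889 on the plus strand, Nr4a1 at chr15:101266596-101266845 on the plus strand and Junb at chr8:84978749-84978998 on the minus strand.
Fos: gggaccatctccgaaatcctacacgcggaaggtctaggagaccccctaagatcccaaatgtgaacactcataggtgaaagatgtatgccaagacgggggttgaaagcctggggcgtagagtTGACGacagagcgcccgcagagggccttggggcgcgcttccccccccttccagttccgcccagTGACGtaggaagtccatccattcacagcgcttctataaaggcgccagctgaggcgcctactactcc
Nr4a1: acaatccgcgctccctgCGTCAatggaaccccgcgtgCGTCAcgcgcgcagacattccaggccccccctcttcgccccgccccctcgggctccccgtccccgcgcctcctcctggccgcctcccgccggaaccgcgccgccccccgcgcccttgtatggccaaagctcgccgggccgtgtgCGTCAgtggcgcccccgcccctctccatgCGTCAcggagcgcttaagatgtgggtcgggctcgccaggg
Junb: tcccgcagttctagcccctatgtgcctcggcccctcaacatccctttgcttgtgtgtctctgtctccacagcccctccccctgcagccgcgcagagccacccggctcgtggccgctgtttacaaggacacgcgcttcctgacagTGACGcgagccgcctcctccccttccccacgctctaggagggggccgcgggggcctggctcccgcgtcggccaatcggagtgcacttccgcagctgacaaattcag

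The core occurs 2 times in the Fos window, 4 times in that of Nr4a1 and 1 time in that of Junb. Of the 19 genes tested, 14 had an entry in the RefSeq promoter table, and 12 of these held the core on either strand in at least 1 window. Among the 11 of them that were lower in the subplate, 10 held it. Among the 27025 genes with any entry, 19.8% did. The windows of the 14 genes also had more G and C (median 62.2% against 52.4%) and more CpG (median 16 against 6), and the core holds a CpG. A match is a stretch of letters and not a measured site.

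Potassium channels were the next group to differ. Of 34 tested, 22 were lower in the subplate, 3 were higher and the median was -0.41, against 13 lower and 2 higher relative to OLF. Of all genes tested, 18.9% were lower and 20% higher than the 5 regions, and 6.93% and 7.96% relative to OLF. Kcnh7, a channel of the ether-à-go-go-related family, was at 20.5, 9.66, 8.25 and 8.70 CPM and above 38 CPM in each isocortical library (-1.75 ± 0.13). Kcnq5, which carries M-type current, differed by -1.36, and Kcna2, an axonal channel, by -1.26. Kcng1, a modulatory subunit, went the other way, with 51.2, 43.6, 42.0 and 16 CPM (2.12 ± 0.16). Its 5xFAD-Dp16 value was the lowest of these and lay below that of OLF in the same section (18.9 CPM).

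Transcription factors of the cortex were split. Of 22 tested, 12 were lower and 7 higher than in the other regions, where 18.9% and 20% of all genes were. Satb1, Bcl11a, Tbr1, Id2 and Mef2c were lower, with log2 differences from -1.36 to -0.99. Tbr1 is a T-box factor of glutamatergic cortical neurons, and Mef2c regulates synapse number. Besides Nr2f2, Lmo3, a LIM-only factor, was higher than the 5 regions (1.53 ± 0.09) but not than OLF (-0.13 ± 0.10). Bcl11b and Id4 were also higher, by 0.96 and 0.63.

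Against OLF, 7 of these 22 factors were higher and 7 lower, where 7.96% and 6.93% of all genes were. Fezf2, which specifies subcortical projection neurons, was at 37.9, 34.0, 37.8 and 23.0 CPM in the subplate and 8.35, 14.4, 18.5 and 11.9 in OLF (1.32 ± 0.17), with no overlap. Neurod6 (1.27) and Satb1 (1.20) were higher too. Neurod1 (-1.33), Lhx2 (-0.65) and Tbr1 (-0.63) were lower.

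**Figure D4:**
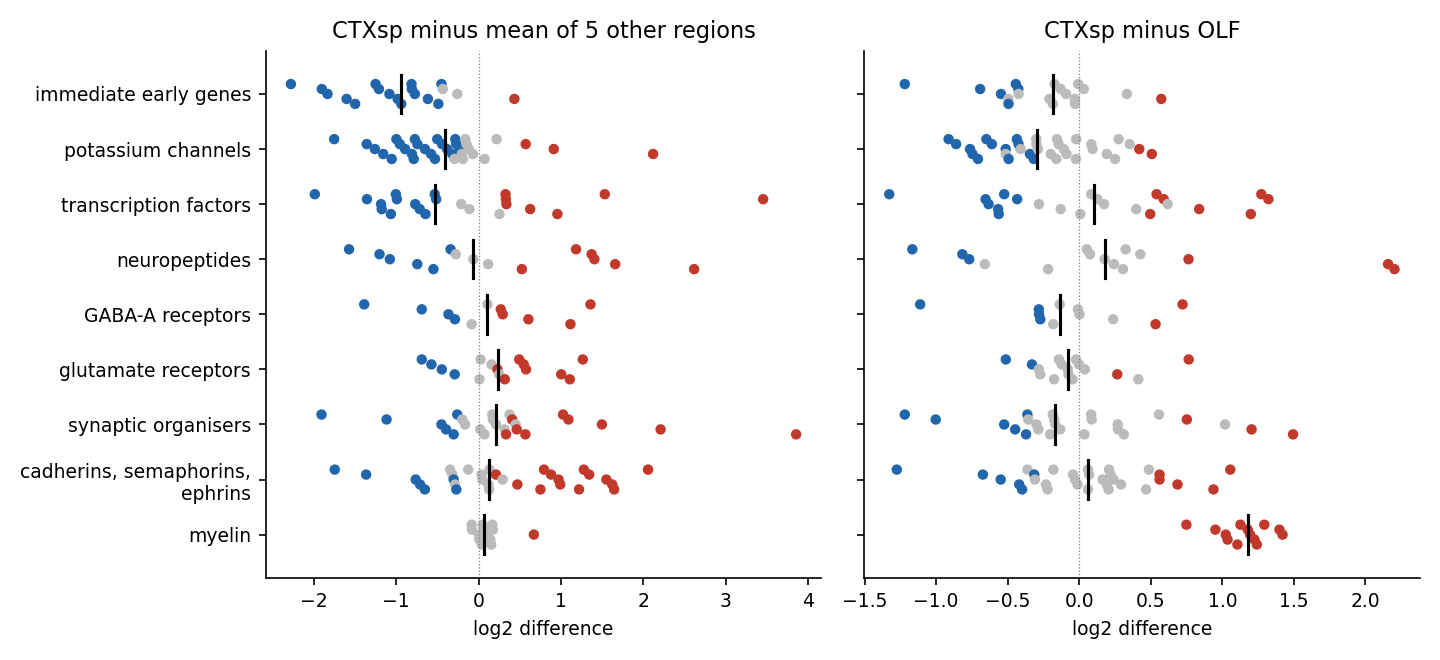
Log2 difference of each tested member of 9 gene lists, cortical subplate minus the mean of 5 other cortical regions (left) and minus OLF (right). Red points were called higher, blue lower and grey not called at an adjusted p under 0.05, and the black line is the list median, which is -0.94 for immediate early genes on the left and 1.18 for myelin on the right.

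Receptors for fast transmitters were split by subunit. For comparison, 20% of all genes tested were higher and 18.9% lower than in the 5 regions. Of 11 GABA-A receptor subunits tested, 5 were higher, led by Gabrg1 (1.36 ± 0.12) and Gabra2 (1.12 ± 0.11), and 4 were lower. Gabrd, the subunit of extrasynaptic receptors, was at 25.6, 22.8, 26.1 and 19.1 CPM and above 49 CPM in each other library (-1.39 ± 0.09). Of 16 glutamate receptor genes, 8 were higher and 4 lower. Grin3a was at 29.7, 39.4, 54.3 and 15.7 CPM (1.27 ± 0.17), and its 5xFAD-Dp16 value lay within the range of the other regions. Gria1 (1.00) and Grik1 (1.11) were higher, and Grin2a (-0.57), Grin1 (-0.29) and Grm2 (-0.69) were lower.

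Of 25 synaptic organisers, 9 were higher and 6 lower, where 20% and 18.9% of all genes were. With 2 libraries per section, 5 of 23 were higher and 6 lower, and against OLF 3 of 25 were higher and 6 lower. With Lypd1 and C1ql3, C1ql2 (1.5 ± 0.25) and C1ql1 (1.09) were higher, so that 3 C1q-like genes were called in 1 direction. Cbln2, a cerebellin, was at 6.14, 2.32, 2.06 and 3.83 CPM and was lower (-1.91 ± 0.22). Of 31 cadherins, semaphorins and ephrins, 14 were higher and 7 lower, and against OLF 5 were higher and 6 lower. Against OLF 7.96% of all genes were higher and 6.93% lower. Cdh4 (2.06 ± 0.17) was highest, and Sema7a (-1.75 ± 0.12) was lowest.

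Neuropeptides were mixed, with 6 of 15 higher and 6 lower than in the 5 regions, beside 20% and 18.9% of all genes. Grp, gastrin-releasing peptide, was at 121, 58.7, 94.2 and 97.1 CPM in the subplate and at 23.4, 25.8, 24.1 and 17.2 CPM in OLF (2.16 ± 0.18, edgeR adjusted p = 1.8e-10), without overlap. Cartpt had a larger difference from OLF (2.20 ± 0.37) but rested on cluster 16. Its levels were 82.3, 30.1, 187 and 632 CPM, and cluster 16 held 410 CPM in wild-type and 3591 CPM in 5xFAD-Dp16. With clusters 0 and 7 alone its difference from the 5 regions was 0.03 and from OLF -0.43. Penk and Tac1, peptides that striatal neurons also make, were higher than the 5 regions (1.37 and 1.41) and moved with the section, Penk at 290, 55.6, 122 and 171 CPM. All 5 striatal genes tested were higher than in the 5 regions, as were 20% of all genes. None of the 5 was called against OLF, where 14.9% of all genes were, so none among 5 is near that share.

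Of 10 inhibitory neuron genes tested, 4 were higher and 3 lower than in the 5 regions, where 39.0% of all genes were called. Slc17a7 was at 519, 531, 471 and 303 CPM, lower than the 5 regions (-0.31 ± 0.08) and than OLF (-0.52 ± 0.09), and with clusters 0 and 7 alone the first difference lost its call (-0.13). Gad1 was at 286, 184, 192 and 212 CPM and was not called against the 5 regions (0.11 ± 0.08). Among inhibitory classes Pvalb was lower, at 121, 64.1, 61.9 and 60.9 CPM against at least 220 CPM in each isocortical library (-1.63 ± 0.16), as was Vip (-1.20), while Sst (0.53) and Gad2 (0.84) were higher. In a mixture of cells, fewer cells of a type and less RNA per cell cannot be told apart.

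Of the basolateral amygdala list, 3 of 4 genes were tested and each was higher than the 5 regions, as were 20% of all genes. Of the claustrum and endopiriform list, 5 of 8 were tested, 4 were higher, and Nr4a2 was not called (-0.11 ± 0.19). None of these 5 was called against OLF, where 14.9% of all genes were, so none among 5 is near that share. The list's summed level was lower in the subplate than in AUC in every section, at 454, 341, 348 and 403 CPM against 656, 521, 682 and 465. Of 3 layer 6b genes, Moxd1 (1.87 ± 0.17) and Ccn2 (0.97) were higher and Cplx3 (-0.75) was lower.

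Against OLF, the most similar of the regions by its number of calls, 701 genes were higher (7.96%) and 610 lower (6.93%), 1311 in all (14.9%). Myelin genes pointed 1 way. All 13 oligodendrocyte and myelin genes tested were higher, with a median of 1.18, whereas 1 of 13 was higher than the mean of the 5 regions. Mobp, a myelin protein, was at 194, 186, 189 and 285 CPM against 103, 86.0, 73.7 and 81.7 in OLF (1.42 ± 0.11). Reln, the secreted glycoprotein reelin, was at 9.56, 19.7, 8.94 and 11.5 CPM against 38.4, 57.5, 44.9 and 65.2 (-1.95 ± 0.16, edgeR adjusted p = 9.9e-11). Ldb2, a cofactor of LIM-domain factors, was at 53.6, 49.1, 57.8 and 48.4 CPM against 30.7, 14.6, 19.3 and 12.3 (1.59 ± 0.16). These 3 genes did not overlap between the regions, as was true of 174 genes above OLF (1.98%) and 681 below it (7.73%).

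Between genotypes, genes of the duplicated segment were higher in the subplate of both mice that carry it. The segment was taken as chr16:75540514-97962627 (RefSeq GRCm38.p6), from Lipi to Zbtb21, and 112 of its genes are in the matrix. Their summed level was 5962 and 5571 CPM in the sections without the duplication (wild-type and 5xFAD) and 8086 and 8054 CPM in the sections with it. Of the 40 that averaged 20 CPM or more, 34 exceeded the all-gene median both when Dp16 was compared with wild-type and when 5xFAD-Dp16 was compared with 5xFAD, where 24.1% of all genes did. Set against the median of all genes, the segment's median log2 ratio was 0.56 (0.46 to 0.68, 95% order-statistic interval over genes) and 0.56 (0.41 to 0.67). In the other cortical regions the same values were 0.57 and 0.58. The average of 20 CPM was taken over all sections, those with the duplication among them. Members near that level could thus enter through their level in the sections with it, which would raise the share above the median and the subplate medians. How many members reached 20 CPM in the sections without it was not counted. The summed level covers all 112 genes and was not filtered in this way.

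Members varied around that value. Atp5j, a subunit of ATP synthase, was at 852, 1283, 867 and 1447 CPM, log2 ratios of 0.59 (0.52 to 0.67, exact counting interval) and 0.74 (0.65 to 0.83). Tmem50b gave 0.51 and 0.96, and Cfap298 0.93 and 0.49. App, the precursor of amyloid beta, was at 751, 871, 657 and 788 CPM and gave 0.21 (0.13 to 0.30) and 0.26 (0.15 to 0.37). Dyrk1a, a kinase, gave 0.48 and 0.56, with intervals as wide as 0.01 to 1.14. Sod1, which removes superoxide, gave 0.70 and 0.21. The members that went furthest from the rest were choroid plexus genes, Clic6 (4.99 and -1.88) and Kcne2, which had no UMI in wild-type and 70.7, 43.3 and 12.2 CPM in the other sections.

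**Figure D5:**
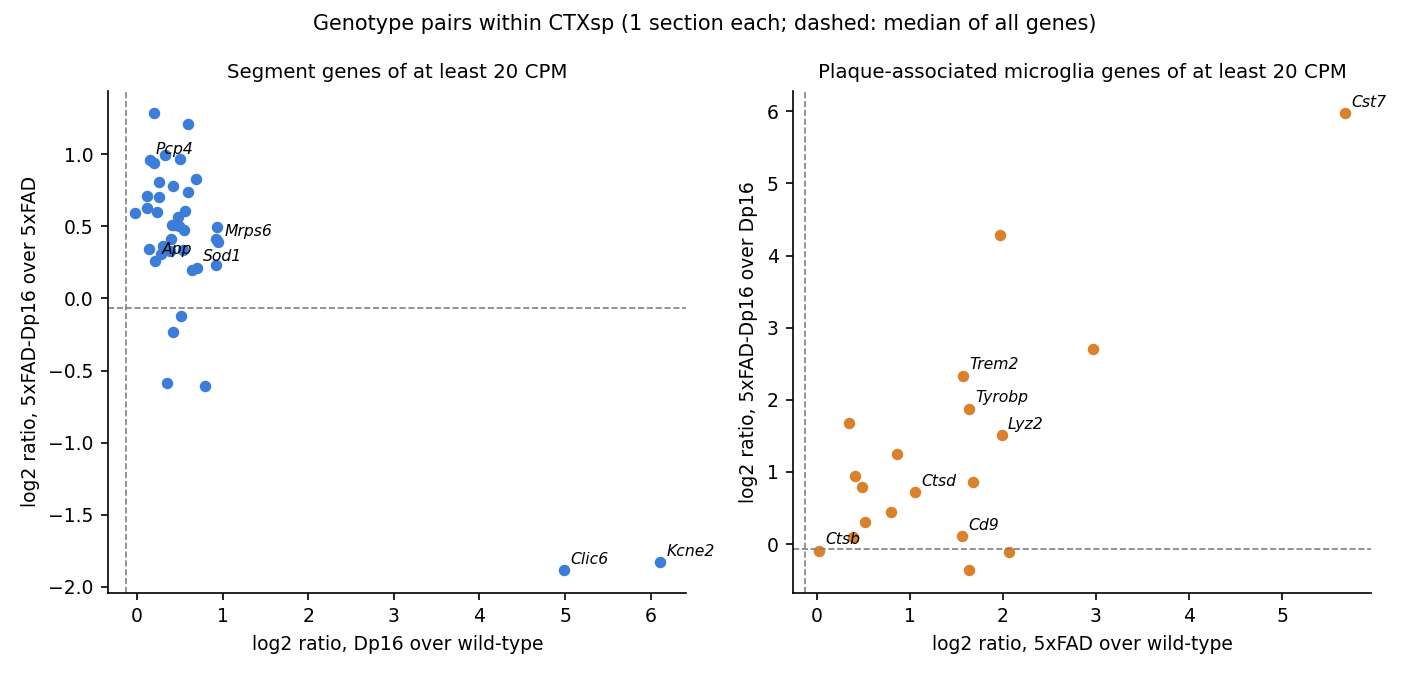
Each point is a gene that averaged at least 20 CPM in the cortical subplate over all sections, those with the duplication or the transgenes among them. Left, segment genes, log2 ratio of Dp16 to wild-type (x) and of 5xFAD-Dp16 to 5xFAD (y). Right, plaque-associated microglia genes, log2 ratio of 5xFAD to wild-type (x) and of 5xFAD-Dp16 to Dp16 (y), with dashed lines at the median of all genes. Cst7 and Kcne2 are lower bounds, since they had no UMI in at least 1 section, and 34 of 40 segment genes lie above both dashed lines.

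Outside the segment few genes followed the duplication in both pairs. At 1.5-fold in each, 4 of 6086 genes were higher (0.0657%) and 25 were lower (0.411%). The 4, named after their values were seen, were A2ml1, Cd52, Lyz2 and Vip. Vip was at 30.7, 54.8, 8.94 and 36.5 CPM and was also among the genes lower with the transgenes. Lyz2 and Cd52, genes of myeloid cells, were at 10.9, 29.4, 43.3 and 83.9 CPM and at 5.80, 10.4, 45.4 and 68.2 CPM. The lowest of these levels rest on few UMIs, and their counting intervals are not given here. B2m, the light chain of MHC class I, was under the fold but also higher with the duplication, at 115, 152, 191 and 274 CPM (0.40 and 0.52). The metallothioneins Mt1 (0.35 and 0.52) and Mt2 (0.33 and 0.38) did too. Mt1 and B2m were higher in 5xFAD than wild-type as well. With TMM factors 11 genes passed higher and 7 lower. Of 12 homeostatic microglia genes, 2 were higher in Dp16 than wild-type and 8 in 5xFAD-Dp16 than 5xFAD. The shares over all genes with a UMI outside the segment were 40.5% and 42.3%. That list summed to 330, 277, 404 and 432 CPM.

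C1ql3, one of the genes that mark the region, was among the 25 lower. Its 57 and 60.5 CPM in the sections without the duplication compare with 34.4 and 32.0 CPM with it, log2 ratios of -0.73 (-1.12 to -0.35) and -0.92 (-1.36 to -0.48). Within cluster 0 alone it was at 38.9 CPM for Dp16, 64.2 for 5xFAD and 34.1 for 5xFAD-Dp16. Within cluster 7 it was at 69.6 CPM for wild-type, 16.7 for Dp16 (4 UMIs) and 59.5 for 5xFAD-Dp16 (26 UMIs). Cluster 16 held 8.14 CPM of it in wild-type and no UMI in 5xFAD-Dp16. The part of the spot mixture in its ratios was not tested. In OLF C1ql3 was at 33.7, 22.2, 46.1 and 16.3 CPM, lower with the duplication there too. Lypd1 (-0.14 and 0.01) and Nr2f2 (-0.21 and -0.08) did not show this. Etv1, an ETS transcription factor of amygdalar and layer 5 neurons, was at 105, 64.1, 67.4 and 41.8 CPM, so that it was lower with the duplication (-0.72 and -0.69) and lower with the transgenes (-0.65 and -0.62). In the other cortical regions its ratios were -0.14, -0.38, 0.08 and -0.16 in the order of those pairs. Gabra3, a GABA-A receptor subunit, was at 52.9, 31.7, 46.1 and 26.1 CPM (-0.74 and -0.82).

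The 5xFAD transgenes went with 18 genes at least 1.5-fold higher in both pairs (0.296%) and 23 lower (0.378%). Thy1, whose promoter drives the transgenes, was at 537, 480, 1672 and 1317 CPM, ratios of 1.64 (1.55 to 1.73) and 1.46 (1.36 to 1.55). Most of the other higher genes are known from microglia and astrocytes. Tyrobp, the adaptor of Trem2, was at 89.4, 101, 277 and 372 CPM (1.63 and 1.88). Trem2, a lipid-sensing receptor of microglia, was at 22.9, 17.4, 68.1 and 87.7 CPM. Cst7, a cysteine protease inhibitor of microglia near plaques, had no UMI in the wild-type and Dp16 subplate and 52.3 and 72.7 CPM with the transgenes, at least 5.67 and 5.97 higher on the log2 scale against a floor of 3 counts per library.

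Complement and astrocyte genes went along. C1qb, a chain of the first complement component, was at 79.9, 77.6, 150 and 203 CPM, and C4b at 14.7, 23.9, 50.9 and 58.5 CPM. Gfap, the filament protein of reactive astrocytes, was at 16, 49.8, 103 and 102 CPM. Its Dp16 value was also above wild-type (1.64, 1.14 to 2.15), while the 5xFAD-Dp16 and 5xFAD values were alike (-0.02, -0.31 to 0.28). In the other cortical regions the Gfap ratio of Dp16 to wild-type was 0.20. Cluster 0 held 80.1% of the Dp16 subplate spots and 0% of the wild-type ones, and the part of this mixture in the Gfap ratio was not tested. Over the whole plaque-associated microglia list of 32 genes the summed level was 1483, 1815, 2678 and 2962 CPM. Of the 32, 30 were higher in 5xFAD than wild-type and 27 higher in 5xFAD-Dp16 than Dp16, beside 41.5% and 40.1% of the 17803 genes with a UMI outside the segment. In the Dp16 pairs, 18 of 32 were higher in Dp16 than wild-type (40.5% of all) and 24 in 5xFAD-Dp16 than 5xFAD (42.3%).

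Among the 23 genes lower with the transgenes, besides Etv1, were Neurl1a, Bsn, Adcy1 and Scn3b. Neurl1a, an E3 ubiquitin ligase, was at 95.9, 105, 57.8 and 62.3 CPM (-0.73 and -0.75). Bsn, the presynaptic scaffold bassoon, was at 149, 120, 97.0 and 75.9 CPM (-0.62 and -0.66). Adcy1, a calcium-stimulated adenylyl cyclase, gave -0.61 and -0.96, and Scn3b, a sodium channel subunit, gave -0.62 in both pairs. With scaling by TMM factors 8 genes passed in place of 23.

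Plaque marks, deposited for each spot, were found on 12 of 107 subplate spots in 5xFAD (11.2%, exact 95% interval 5.93 to 18.8) and on 25 of 202 in 5xFAD-Dp16 (12.4%, 8.17 to 17.7). In the other cortical regions the shares were 14.2% and 15.9%. No spot was marked in the wild-type and Dp16 subplate. In 5xFAD-Dp16, Cst7 was at 245 CPM in marked spots, 137 in their neighbours and 11.6 in unmarked spots, and Tyrobp at 1059, 542 and 160 CPM. In 5xFAD the gradient was flatter. Cst7 was at 70.5, 80.0 and 26.5 CPM there, and Tyrobp at 368, 341 and 205 CPM. Lypd1 was at 722, 740 and 567 CPM in 5xFAD-Dp16 and 700, 594 and 630 CPM in 5xFAD. Its 5xFAD-Dp16 counting intervals were 641 to 812, 676 to 808 and 533 to 603 CPM. C1ql3 was at 91.9, 47.7 and 13.2 CPM in 5xFAD-Dp16 and 106, 76.3 and 36.2 CPM in 5xFAD, highest in marked spots of both. The 2 sections' gradients were not tested against each other. Without marked spots and their neighbours, the microglia list's median ratio of 5xFAD-Dp16 to Dp16, set against all genes, was 0.089 instead of 0.93. These medians cover only members that averaged 20 CPM over the 4 sections. In the full subplate 19 of the 32 did, while 15 reached it in wild-type and Dp16. Some members thus entered through their level in the sections with transgenes, which raises the 0.93. Unmarked 5xFAD spots had 205, 61.3 and 524 CPM of Tyrobp, Trem2 and the list member Ctsd. The wild-type subplate had 89.4, 22.9 and 252 CPM. For unmarked 5xFAD-Dp16 spots these were 160, 30.4 and 301 CPM, against 101, 17.4 and 329 CPM in the Dp16 subplate.

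Of all 20 immediate early genes, 1 had a higher level in Dp16 than wild-type and 3 had one in 5xFAD-Dp16 than 5xFAD, beside 40.5% and 42.3% of all genes with a UMI outside the segment. Of the 12 immediate early genes with enough counts, 8 were at least 1.5-fold lower in Dp16 than wild-type and 1 was in 5xFAD-Dp16 than 5xFAD, where 5.24% and 8.03% of all genes outside the segment were. Arc passed that fold in both pairs (-0.84 and -0.71), and Bdnf was lower with the transgenes in both (-0.65 and -1.13). Egr1 was highest in the wild-type subplate and between 35.1 and 43.3 CPM in the other 3. In the other cortical regions the values were -0.88 for the list's relative median of Dp16 to wild-type and -0.08 for 5xFAD-Dp16 to 5xFAD. Sst, somatostatin, was at 1498, 804, 488 and 1115 CPM in the subplate, high in the 2 sections with most spots of cluster 16, and its ratio of 5xFAD to wild-type was -1.62 there against -0.27 in the other cortical regions. The inhibitory neuron list summed to 2913, 1881, 1242 and 2318 CPM, in the same order of sections. The part of the spot mixture in these differences was not tested.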

How the data were processed

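Visium RNA was measured in 1 section per genotype. Deposited were raw UMI counts (19090 genes, 10549 spots), made by the authors with Space Ranger and Seurat on mm10, per the submitters' processing notes; the sources used here give no versions. The deposited spot table gives region labels (7 cortical of 17), 22 clusters, plaque marks and the percent of mitochondrial counts per spot. The sources used here do not say how labels, clusters and marks came about. Every spot was kept, and no doublet caller was run, since a spot can hold several cells. The sections share a fixed array, so 2879 of 3164 barcodes occur in more than 1.

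The subplate spots held 2929882, 2588928, 1453727 and 2873567 UMIs (order as in the results: wild-type, Dp16, 5xFAD, then both), a median of 13909 to 16660 per spot and a median of 15.1% to 18.3% mitochondrial counts. For regions, counts were summed into 24 libraries (6 cortical labels in 4 sections; the label RSP, CL was left out, having no spots in 2 sections) and fitted with edgeR 4.0.16 (quasi-likelihood, TMM factors, section and region terms, genes of mean at least 10 CPM, Benjamini-Hochberg adjusted p under 0.05). Sections served as blocks, with genotype and section not separable. Log2 differences carry SE. For genotypes, CPM ratios carry exact Clopper-Pearson intervals at 95% that cover counting error only, and genes of mean at least 20 CPM entered counts. Named genes were the largest differences of 1 sign in all sections at a mean of at least 50 CPM, members of fixed lists (2 most abundant, highest and lowest) and 18 always shown; other members of lists are named where they help, and some are not reported here. The members and lists were chosen with earlier results of these data known. The region and genotype steps were tested on simulated data. Alternatives were DESeq2 1.42.0, other scaling, filters, spot sets and leaving out each section.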

Additional observations from a re-analysis of the deposited data

Results flagged for a closer look

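Some ratios within the subplate pointed opposite ways in the pairs of an effect, with counting intervals apart. The difference was not tested in any of them, and each rests on 1 section per genotype. Apoe, the lipid carrier of astrocytes and microglia, was higher in Dp16 than wild-type (log2 ratio 0.33) and lower in 5xFAD-Dp16 than 5xFAD (-0.34), and for the transgenes the ratios were 0.51 and -0.16. Mbp, myelin basic protein, gave -0.23 and 0.50 for the duplication and -0.49 and 0.24 for the transgenes. Ppp1r1b, a striatal phosphatase inhibitor, gave 0.47 and -1.51 for the duplication and 0.80 and -1.17 for the transgenes. Gad1 gave -0.57 in 5xFAD against wild-type and 0.21 in 5xFAD-Dp16 against Dp16. The neuropeptide list had a median, set against all genes, of -0.98 in the first of these pairs and 0.78 in the second. The share of subplate spots in cluster 16 was 13.4% for wild-type, 0% for Dp16, 4.67% for 5xFAD and 16.8% for the mouse with both, and its part in these values was not tested.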

How the results depend on the processing

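Labels give no replicate numbers shared between groups. No paired analysis was possible because each genotype has 1 section, although section is a block in the region fits. Standardising over clusters could not be run, since no cluster had at least 10 subplate spots in each section; the fits on clusters 0 and 7, and on cluster 0, were chosen after seeing the data. Over single genes, 1080 values counted as the same, 58 as moved and 5 as reversed, while 10 became called and 24 lost their call. In the region fits, the same meant an unchanged direction and side of the threshold. For genotype ratios it meant a value inside the main counting interval. Reversed meant a changed sign with a call in either region fit, or with a main genotype interval that excluded 0. Other sign changes fell under moved or the same.

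Against the 5 regions, genes higher numbered 1766, and 1004 without TMM factors, 2827 without a filter, 907 at 50 CPM, 465 at 1.5-fold and 1411 to 1574 without a section. Genes lower numbered 1669, and 2617, 877 (50 CPM), 511 (1.5-fold) and 1373 to 1490 (without a section). Higher genes thus made up 51.4% of calls with TMM and 27.7% without, where the median of all genes moved from 0.01 to -0.11. Against OLF, 701 higher became 384 without TMM (26.2% of calls instead of 53.5%), 406 at 50 CPM, 419 without plaque-marked spots and neighbours, 219 at 1.5-fold and 372 to 707 without a section, the lowest without 5xFAD-Dp16. The 610 lower became 1079, 397 (unmarked), 192 (1.5-fold) and 359 to 649, the lowest again without 5xFAD-Dp16. List medians against the 5 regions moved to 0.27 (myelin) and 0.083 (oxidative phosphorylation) with 2 libraries per section, and without TMM to -0.058 (myelin), 0.088 (plaque microglia), -0.091 (oxidative phosphorylation) and -0.28 (cholesterol synthesis). Signs changed for Cartpt against OLF in clusters 0 and 7 (-0.43), Slc17a6 against OLF without a section (-0.27 without 5xFAD-Dp16 to 0.68 without wild-type), Cst7 against OLF without marked spots (-0.38), and Cartpt in 5xFAD-Dp16 against Dp16 in clusters 0 and 7 (-0.20) and in cluster 0 (-0.56). The cause was not tested.

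For the duplication, 4 higher genes became 11 with TMM, 7 without mitochondrial, ribosomal and haemoglobin genes, 40 at 5 CPM, 7 as a mean over spots, 7 in clusters 0 and 7 and 0 at 2-fold; 25 lower became 7 with TMM, 155 at 5 CPM, 47 unmarked and 0 at 2-fold. For the transgenes, 18 higher became 28 without those gene classes, 79 at 5 CPM and 11 at 2-fold; 23 lower became 8 with TMM, 140 at 5 CPM, 72 unmarked, 47 as a mean over spots and 0 at 2-fold. The 5xFAD-Dp16 to Dp16 medians moved to 0.089 (plaque microglia, unmarked), and for myelin to 0.22 (clusters 0 and 7) and 0.32 (cluster 0). For immediate early genes the 5xFAD-Dp16 to 5xFAD median moved to 0.041 unmarked and 0.084 in cluster 0. Counting neighbours, plaque marks covered 43.9% of 5xFAD and 36.1% of 5xFAD-Dp16 spots. Depth limits genes near 20 CPM most in 5xFAD, which had the fewest counts.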
